A study of Mus musculus with 16 samples.

Results

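The 10 genes described here are Nfatc1, Nfatc2, Nfatc3, Nfat5, Ppp3ca, Ppp3cb, Ppp3r1, Rcan1, Cacnb3 and Cdk5r1, which encode NFAT transcription factors, calcineurin subunits, a calcineurin inhibitor, a calcium channel subunit and an activator of the kinase CDK5. They were taken from the deposited table by symbol, and all 10 are among its 13085 genes. The table holds the RNA of mouse monocytes, all C57BL/6, from NFAM1+/+ animals or from NFAM1-/- animals that lack an internal part of Nfam1 in every cell, cultured for 6 h or 24 h either without stimulus (NoStim) or with IFN-γ followed by a multimeric CD40 ligand (IFN-γ plus CD40L). Each of the 4 combinations of stimulus and time was sequenced in 4 libraries, 16 in all, and within each combination at 6 h there were 2 NFAM1+/+ and 2 NFAM1-/- libraries. The labels call the cells blood monocytes, whereas the study's methods describe monocytes taken from bone marrow, and neither source used here gives the age of the mice. The study describes monocytes from several mice of each genotype, but no label ties a library to a mouse, so p-values may measure technical spread only.

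For 4 of the 8 libraries cultured for 24 h, title and tag name different genotypes. Genotype at that time was therefore read only from the 4 libraries whose labels agree, which leaves 1 library per genotype and stimulus, while stimulus and time were the same in every label. Libraries are named below by the numbers in their labels. The libraries held 48295939 to 88514341 reads on the listed genes. Among the genes named at the start, the fewest reads behind a value were 33, for Cdk5r1 in an unstimulated library at 6 h. Some values of other genes given below, among them Cables1, Cacnb2 and Nfatc4, hold no reads beyond the 0.5 added to each count. Nfam1, the deleted gene, was counted over its whole length and stood at 432 and 408 CPM (reads relative to a scaled library size) in the unstimulated NFAM1+/+ libraries at 6 h and at 299 and 321 CPM in the NFAM1-/- ones, a difference that did not pass the test (adjusted p = 0.0799). In the stimulated libraries at 6 h it stood at 133 and 129 CPM in NFAM1+/+ and at 135 and 127 CPM in NFAM1-/- (log2 difference -0.01, adjusted p = 0.978), so these counts do not check the genotype labels there. Of the marker genes of other cell types, the T cell genes Cd3e, Cd3d, Cd3g, Trac and Cd2 were not listed, nor were any of the 6 NK cell genes, and the B cell genes Ms4a1 and Pax5 were not listed either. The 3 listed B cell genes summed to 34.5 to 371 CPM, a sum carried by Ighm, at 33.0 to 370 CPM. All 9 monocyte markers were listed, and their summed level was 22323 to 30109 CPM in unstimulated and 8303 to 11643 CPM in stimulated libraries.

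In calcium signaling, receptor engagement empties the calcium stores of the endoplasmic reticulum, STIM proteins open ORAI channels at the plasma membrane, and calmodulin loaded with calcium activates calcineurin. Calcineurin is a phosphatase with a catalytic A subunit, encoded here by Ppp3ca or Ppp3cb, and a regulatory B subunit, encoded by Ppp3r1. It removes phosphates from NFATc1, NFATc2 and NFATc3, which then enter the nucleus, and the kinases GSK3, CK1 and DYRK put the phosphates back. NFAT5 lacks the calcineurin docking region and is known for its response to hypertonic stress, and RCAN1 binds and inhibits calcineurin while its shorter transcript is itself a classical NFAT target. NFAM1 is a membrane receptor with an activation motif of the kind used by B and T cell receptors and was named for its ability to activate NFAT. All values below are levels of mRNA, and in bulk RNA a change in the number of cells of a type and a change in RNA per cell cannot be told apart.

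The 250 bases before the annotated starts of Rcan1, Nfatc2 and Cacnb3 are shown because these genes have alternative starts with different counts of the NFAT core motif, and because Nfatc2 and Cacnb3 had the widest ranges of level, with Cdk5r1, among the 10 genes. Sequences are from RefSeq (GRCm38.p6, which differs from the GRCm39 build in the submitters' processing notes), written 5′ to 3′ on the strand of the gene. Capitals mark each match to the NFAT core GGAAA or its reverse complement TTTCC.
Rcan1, distal start, chr16:92466170-92466419, minus strand: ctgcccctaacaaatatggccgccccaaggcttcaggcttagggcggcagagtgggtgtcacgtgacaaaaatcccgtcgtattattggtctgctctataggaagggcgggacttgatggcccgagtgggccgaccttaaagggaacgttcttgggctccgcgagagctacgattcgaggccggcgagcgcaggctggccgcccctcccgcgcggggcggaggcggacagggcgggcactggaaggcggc
Rcan1, internal start, chr16:92400079-92400328, minus strand: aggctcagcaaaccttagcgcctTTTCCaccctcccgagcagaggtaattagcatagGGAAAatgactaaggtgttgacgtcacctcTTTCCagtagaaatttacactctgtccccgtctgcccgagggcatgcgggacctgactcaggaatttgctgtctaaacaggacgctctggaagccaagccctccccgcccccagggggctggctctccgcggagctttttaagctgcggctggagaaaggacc
Nfatc2, distal start, chr2:168601658-168601907, minus strand: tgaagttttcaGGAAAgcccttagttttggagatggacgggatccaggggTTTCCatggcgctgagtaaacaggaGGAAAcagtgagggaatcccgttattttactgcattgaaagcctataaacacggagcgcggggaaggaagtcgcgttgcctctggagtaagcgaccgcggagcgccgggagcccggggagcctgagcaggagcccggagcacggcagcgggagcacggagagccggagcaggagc
Nfatc2, internal start, chr2:168590366-168590615, minus strand: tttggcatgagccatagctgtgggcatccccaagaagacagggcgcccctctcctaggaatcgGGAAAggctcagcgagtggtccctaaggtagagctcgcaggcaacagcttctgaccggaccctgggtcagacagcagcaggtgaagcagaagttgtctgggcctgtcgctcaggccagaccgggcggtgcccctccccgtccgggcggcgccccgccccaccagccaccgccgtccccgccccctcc
Cacnb3, first start, chr15:98632078-98632327, plus strand: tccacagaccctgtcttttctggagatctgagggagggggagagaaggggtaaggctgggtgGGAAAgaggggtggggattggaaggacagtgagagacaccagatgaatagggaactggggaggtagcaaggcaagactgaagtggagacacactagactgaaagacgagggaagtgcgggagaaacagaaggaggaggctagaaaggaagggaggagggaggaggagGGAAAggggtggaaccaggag
Cacnb3, second start, chr15:98634517-98634766, plus strand: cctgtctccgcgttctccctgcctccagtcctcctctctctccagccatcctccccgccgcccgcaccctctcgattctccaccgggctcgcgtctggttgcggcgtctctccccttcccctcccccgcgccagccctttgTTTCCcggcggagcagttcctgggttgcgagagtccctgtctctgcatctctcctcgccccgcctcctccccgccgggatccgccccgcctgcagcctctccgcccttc
The internal Rcan1 window holds 3 matches, whose first bases lie 227, 193 and 163 bases before the start, and the distal one holds 0. A match to the AP-1 motif TGANTCA lies 110 to 104 bases before the internal Rcan1 start and overlaps none of the NFAT cores. The distal Nfatc2 window, outside the gene, holds 3 matches and the internal one holds 1, while the Cacnb3 windows hold 2 and 1. Both Cacnb3 windows, both Rcan1 windows and the internal Nfatc2 window lie within the annotated gene, and 51 bases of the second Cacnb3 window lie in an exon of a Cacnb3 transcript. Over all 32851 promoter windows of this length, 55.6% hold at least 1 match to the core on either strand, 6.4% hold at least 3, and 6.7% hold the AP-1 motif. The interferon-gamma activated site TTCNNNGAA (7.0% of all windows) was found in none of the 11 windows searched, which belong to 7 of the 10 genes. Among the others, the Ppp3cb window holds 3 cores, that of Nfat5 holds 2, one of the Nfatc3 windows holds 1 and the Ppp3r1 window holds 0. The gene level counts do not separate transcripts from the different starts.

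Of the 8 NFAT and calcineurin genes, including Rcan1, 4 rose, 3 fell and 1 did not pass the test after 6 h of IFN-γ plus CD40L, and the classical NFAT factors moved in opposite directions (Nfatc1 and Nfatc2 up, Nfatc3 down). After 24 h, 3 of the 8 rose and 5 fell, and Nfatc1 and Nfatc2 were now lower in the stimulated libraries. The test was limma on the deposited log2 CPM with Benjamini-Hochberg adjustment over the 12306 genes tested, and a gene passed at an adjusted p under 0.05. The same test was passed by 78% of all genes at 6 h (34.7% higher, 43.3% lower) and by 74.3% at 24 h (38.2% higher, 36.1% lower), so the shares passed among the 8 genes are near the background. Their median log2 change was 0.07 at 6 h and -0.43 at 24 h, against -0.13 and 0.02 over all genes tested. At 6 h the deposited CPM sum to 0.756 to 0.775 of the nominal total in unstimulated and 1.24 to 1.32 of it in stimulated libraries, and dividing by each library's own total moves the median of all genes by -0.73 at 6 h and by -0.33 at 24 h. On that scale 2 of the 8 genes rose and 6 fell at 6 h, with Ppp3ca and Ppp3cb turned to lower, and 0 rose and 5 fell at 24 h. Nfatc1 and Nfatc2 were higher at 6 h and lower at 24 h on either scale. From 6 h to 24 h without stimulus 3 of the 8 rose and 3 fell (62.9% of all genes passed, 33.3% higher and 29.6% lower), and with stimulus 2 rose and 5 fell (75.6% passed, 39.4% higher and 36.2% lower). The response was more positive at 24 h than at 6 h for 3 of the 8 and more negative for 4 (66.4% of all genes passed, 35% and 31.3%).

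**Figure D1:**
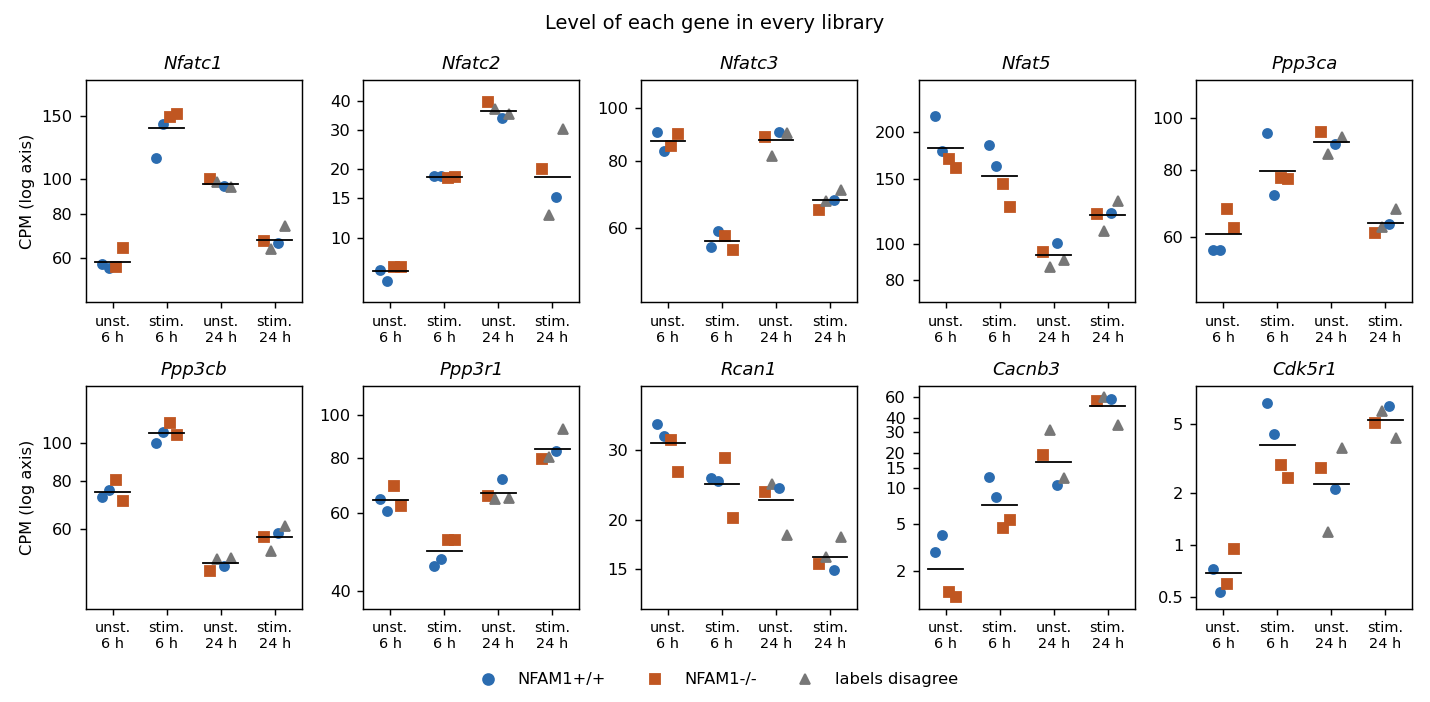
Level of each of the 10 genes in every library (CPM, log axis) by stimulus and time, with blue circles for NFAM1+/+, orange squares for NFAM1-/-, grey triangles for libraries whose genotype labels disagree, and a bar at the geometric mean of the 4 libraries. Nfatc1 peaks in stimulated libraries at 6 h (115 to 151 CPM) and Nfatc2 in unstimulated libraries at 24 h (33.8 to 39.9 CPM), whereas Cacnb3 is highest in stimulated libraries at 24 h (34.4 to 59.8 CPM).

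Nfatc1 encodes NFATc1, a factor known for osteoclast formation from monocyte lineage cells. Its level was 57.9, 56.4, 56.6 and 64.0 CPM in the unstimulated libraries at 6 h and 115, 142, 149 and 151 CPM in the stimulated ones. At 24 h it was 99.6, 98.0, 95.3 and 95.03 CPM without stimulus and 67.2, 63.7, 66.3 and 73.8 CPM with it. The groups did not overlap at either time, and the stimulated libraries were the higher ones at 6 h and the lower ones at 24 h. Nfatc1 rose 2.36-fold at 6 h (log2 1.24, SE 0.0767, adjusted p = 1.11e-10) and fell 1.43-fold at 24 h (log2 -0.52, SE 0.0767, adjusted p = 9.70e-06). The response at 24 h minus that at 6 h was -1.76 on the log2 scale (SE 0.108, adjusted p = 6.85e-10). In order, the unstimulated 6 h and stimulated 24 h libraries overlapped, and the unstimulated 24 h and then the stimulated 6 h libraries stood above them without overlap.

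Nfatc2 encodes NFATc2, a factor best known from activated T cells. It stood at 7.21, 6.46, 7.42 and 7.43 CPM in the unstimulated libraries at 6 h and at 18.8, 18.7, 18.4 and 18.6 CPM in the stimulated ones. At 24 h its level was 39.9, 37.2, 33.8 and 35.1 CPM without stimulus and 20.1, 12.6, 15.1 and 30.2 CPM with it. The 4 unstimulated libraries at 24 h were above all the others, and the stimulated libraries at 24 h were the most spread, with library 58 close to the unstimulated ones. Nfatc2 rose 2.62-fold at 6 h (log2 1.39, SE 0.178, adjusted p = 1.66e-06) and fell 1.98-fold at 24 h (log2 -0.98, SE 0.178, adjusted p = 9.23e-05). Between 6 h and 24 h without stimulus it rose 5.12-fold (log2 2.36, SE 0.178, adjusted p = 6.70e-09), whereas with stimulus the change was -0.01 (95% interval -0.39 to 0.36, adjusted p = 0.948). The summed level of the neutrophil markers (8 of 8 listed) was also higher in the unstimulated libraries at 24 h, at 632 to 1115 CPM against 86.6 to 354 CPM elsewhere, and 7 of the 8 genes were above all other libraries there. That of the dendritic cell markers (5 of 5 listed) was 90.4 to 190 CPM against 31.4 to 51.1 CPM, a sum carried by Flt3, at 67.3 to 145 CPM against at most 29.7 CPM elsewhere. Siglech was highest there as well, whereas Zbtb46 was highest in the stimulated libraries at 24 h, at 13.9 to 21.7 CPM, and Xcr1 and Clec9a were highest in the stimulated ones at 6 h. The 3 listed T cell genes of 8 summed to 0.605 to 6.995 CPM, and the part of other cells in the Nfatc2 levels was not tested.

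Nfatc3 encodes NFATc3, another member of the group of factors that calcineurin activates. Its level was 83.5 to 90.4 CPM in unstimulated and 54.4 to 59.0 CPM in stimulated libraries at 6 h, and 81.6 to 90.2 CPM in unstimulated and 64.8 to 70.7 CPM in stimulated libraries at 24 h. The stimulated libraries were lower at both times without overlap, and both sets of unstimulated libraries covered the same range. The fall was 1.54-fold at 6 h (log2 -0.62, SE 0.0505, adjusted p = 4.53e-09) and 1.29-fold at 24 h (log2 -0.37, SE 0.0505, adjusted p = 3.85e-06). The fall was smaller at 24 h by 0.25 (SE 0.0714, adjusted p = 0.00542), and without stimulus the change from 6 h to 24 h was 0.01 (95% interval -0.10 to 0.11, adjusted p = 0.937). Of its exonic length, 1.9% overlaps Esrp2 on the other strand, and the library kit did not keep strand.

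Nfat5, the factor of the osmotic stress response, followed another course. Its level was 222, 178, 169.9 and 159.9 CPM in the unstimulated libraries at 6 h and 185, 162, 145 and 126 CPM in the stimulated ones, so that the ranges overlapped. At 24 h it was 94.8, 86.8, 101 and 90.4 CPM without stimulus and 120.05, 108, 121 and 131 CPM with it, without overlap. The change at 6 h was -0.24 (SE 0.110) and missed the threshold (adjusted p = 0.0512), whereas at 24 h Nfat5 rose 1.29-fold (log2 0.36, SE 0.110, adjusted p = 0.00645). Leaving out library 26 brought the 6 h change to -0.34 and past the threshold (adjusted p = 0.00820), and leaving out library 3 or 4 also took it past the threshold. Without library 56, a stimulated library at 24 h, the 6 h change stayed at -0.24. It then passed (adjusted p = 0.0498) because the fit shares its estimate of the spread over all libraries. Leaving out library 1 brought the change to -0.15, which did not pass. On each library's own total, Nfat5 passed as lower at 6 h and did not pass as higher at 24 h, so both results depend on the scaling. From 6 h to 24 h without stimulus Nfat5 fell 1.95-fold (log2 -0.96, SE 0.110, adjusted p = 9.54e-07).

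The calcineurin subunits did not move as a unit. At 6 h both catalytic subunit genes rose and the regulatory subunit gene fell, and at 24 h Ppp3ca fell while Ppp3cb and Ppp3r1 rose, on the deposited scale. On each library's own total, Ppp3ca and Ppp3cb were lower in stimulated libraries at 6 h (log2 -0.34 and -0.23), and Ppp3cb and Ppp3r1 differed by -0.10 and -0.00448 at 24 h, so the directions of these small changes depend on the scaling. Ppp3ca was at 57.0, 56.8, 67.7 and 62.4 CPM in unstimulated libraries at 6 h and at 93.9, 72.1, 77.4 and 77.1 CPM in stimulated ones, with library 26 the highest. At 24 h it was at 94.4, 85.9, 89.4 and 92.3 CPM without stimulus and at 61.0, 62.8, 63.4 and 67.9 CPM with it. The stimulated libraries were thus all higher at 6 h and all lower at 24 h, by a log2 change of 0.39 (SE 0.0761, adjusted p = 0.000158) and of -0.50 (SE 0.0761, adjusted p = 1.23e-05). The change in response between the times was -0.90 (SE 0.108, adjusted p = 1.48e-06).

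Ppp3cb was at 70.7 to 80.5 CPM without and 100.3 to 112 CPM with stimulus at 6 h, and at 46.6 to 50.5 CPM without and 52.5 to 60.9 CPM with stimulus at 24 h. No neighbouring groups in this order overlapped, and both 24 h groups were below both 6 h groups. Its log2 change with stimulus was 0.51 at 6 h (SE 0.0581, adjusted p = 4.10e-07) and 0.23 at 24 h (SE 0.0581, adjusted p = 0.00185), and from 6 h to 24 h it fell by 0.61 without stimulus (adjusted p = 1.03e-07) and by 0.89 with it (adjusted p = 3.51e-10). Ppp3r1, which encodes the calcium-binding regulatory subunit, was at 60.6 to 69.1 CPM without and 45.6 to 52.1 CPM with stimulus at 6 h, and at 64.6 to 71.7 CPM without and 79.3 to 92.9 CPM with stimulus at 24 h. Its stimulated libraries were the lowest of all at 6 h and the highest of all at 24 h. The log2 change was -0.38 at 6 h (SE 0.0656, adjusted p = 4.49e-05) and 0.33 at 24 h (SE 0.0656, adjusted p = 0.000231), and these differed by 0.71 (SE 0.0927, adjusted p = 3.78e-06). Exons of Ppp3r1 share 14.3% of their length with Wdr92 on the same strand, so reads there cannot be told apart.

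Rcan1, the calcineurin inhibitor, was lower with stimulus at both times. It was at 34.8, 32.4, 31.7 and 26.3 CPM in unstimulated and at 25.5, 25.002, 28.6 and 20.3 CPM in stimulated libraries at 6 h, and these ranges overlapped. At 24 h it was at 23.5, 24.6, 24.1 and 18.3 CPM without stimulus and at 15.5, 16.1, 14.9 and 18.1 CPM with it, and the ranges were adjacent without overlap. Rcan1 fell 1.26-fold at 6 h (log2 -0.34, SE 0.117, adjusted p = 0.0142) and 1.39-fold at 24 h (log2 -0.48, SE 0.117, adjusted p = 0.00135), and the difference between these responses was -0.14 (95% interval -0.49 to 0.21, adjusted p = 0.464). Without library 12 the fall at 6 h did not pass (log2 -0.24, adjusted p = 0.0619).

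**Figure D2:**
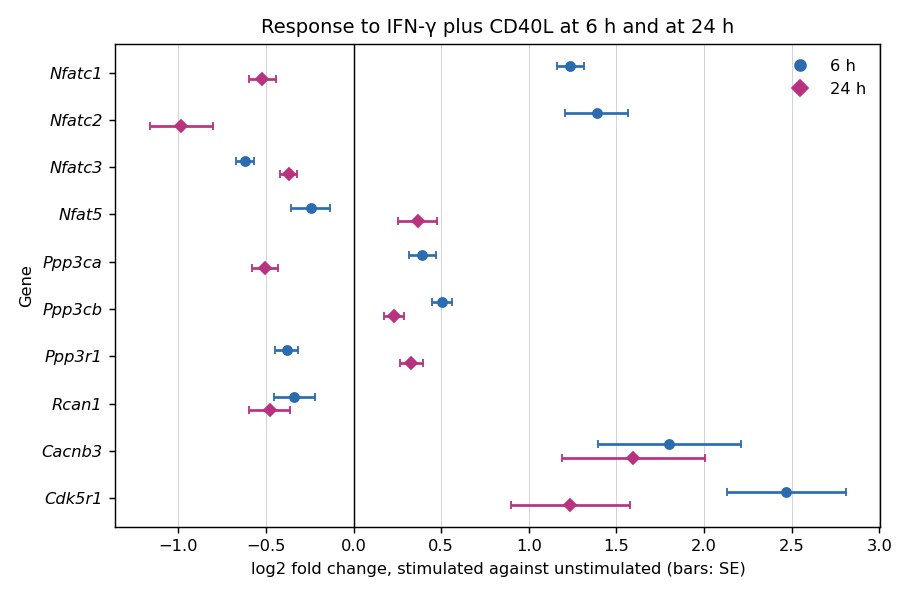
Log2 fold change of stimulated against unstimulated libraries with its SE for the 10 genes at 6 h (blue circles) and 24 h (pink diamonds), from 4 libraries per group. Nfatc1, Nfatc2 and Ppp3ca change from higher at 6 h to lower at 24 h, and Ppp3r1 from lower to higher.

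Cacnb3 and Cdk5r1 are neither NFAT factors nor parts of calcineurin and are taken to have been included for their values in these libraries, so their levels are given as a description without tests. Cacnb3 encodes a β subunit of voltage-gated calcium channels, which helps to bring the pore subunit to the membrane. In unstimulated libraries at 6 h it was at 2.89 and 4.05 CPM in NFAM1+/+ and at 1.31 and 1.18 CPM in NFAM1-/-. In stimulated libraries at 6 h it was at 12.6 and 8.45 CPM in NFAM1+/+ and at 4.64 and 5.41 CPM in NFAM1-/-. At 24 h the unstimulated libraries 43, 44, 45 and 46 had 19.2, 31.2, 10.7 and 12.2 CPM and the stimulated libraries 55, 56, 57 and 58 had 55.6, 59.8, 57.4 and 34.4 CPM. The order was unstimulated 6 h, stimulated 6 h, unstimulated 24 h and stimulated 24 h, and of these steps the middle one had overlapping ranges. The log2 change with stimulus was 1.80 (SE 0.409) at 6 h and 1.60 (SE 0.409) at 24 h, and that from 6 h to 24 h was 3.02 without and 2.82 with stimulus.

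Cdk5r1 encodes p35, the activator of the kinase CDK5. The study names this gene among the NFAT targets with lower expression in CD40L-stimulated NFAM1-/- monocytes. It was at 0.731 and 0.537 CPM in NFAM1+/+ and 0.596 and 0.948 CPM in NFAM1-/- libraries without stimulus at 6 h, and at 6.67 and 4.38 CPM in NFAM1+/+ and 2.92 and 2.45 CPM in NFAM1-/- libraries with stimulus. At 24 h it was at 2.81, 1.20, 2.11 and 3.64 CPM without and at 5.06, 5.97, 6.36 and 4.15 CPM with stimulus. Stimulated libraries were higher without overlap at both times, with log2 changes of 2.47 (SE 0.338) at 6 h and 1.24 (SE 0.338) at 24 h. From 6 h to 24 h the log2 change was 1.72 without stimulus, without overlap, and 0.48 with it, with overlapping ranges.

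Per kb of exon, a scale on which levels of different genes can be compared, the mixture of the classical NFAT mRNAs shifted with stimulus and time. Of the sum of Nfatc1, Nfatc2 and Nfatc3 per kb, Nfatc1 made up 49.2% ± 1.12 (SD, n = 4) in unstimulated and 73.7% ± 2.47 in stimulated libraries at 6 h, and 54.3% ± 0.880 in unstimulated and 54.4% ± 1.20 in stimulated libraries at 24 h. Stimulus thus went with a larger Nfatc1 share at 6 h, without overlap, and with overlapping shares at 24 h. The Nfatc2 share was 4.22% ± 0.218 and 7.03% ± 0.749 at 6 h and 14.4% ± 0.815 and 10.8% ± 3.33 at 24 h, and the Nfatc3 share was 46.5% ± 1.05 and 19.3% ± 1.76 at 6 h and 31.2% ± 1.47 and 34.7% ± 2.25 at 24 h, in each case without and then with stimulus. Ppp3ca made up 41.8% ± 1.72 and 39.9% ± 3.65 of the catalytic subunit mRNA (Ppp3ca plus Ppp3cb per kb) at 6 h, and 62.0% ± 1.61 and 49.6% ± 1.28 at 24 h. Ppp3cb was therefore the larger part of the pair at 6 h and Ppp3ca the larger part in unstimulated libraries at 24 h. A share within a library does not depend on how the library was scaled.

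**Figure D3:**
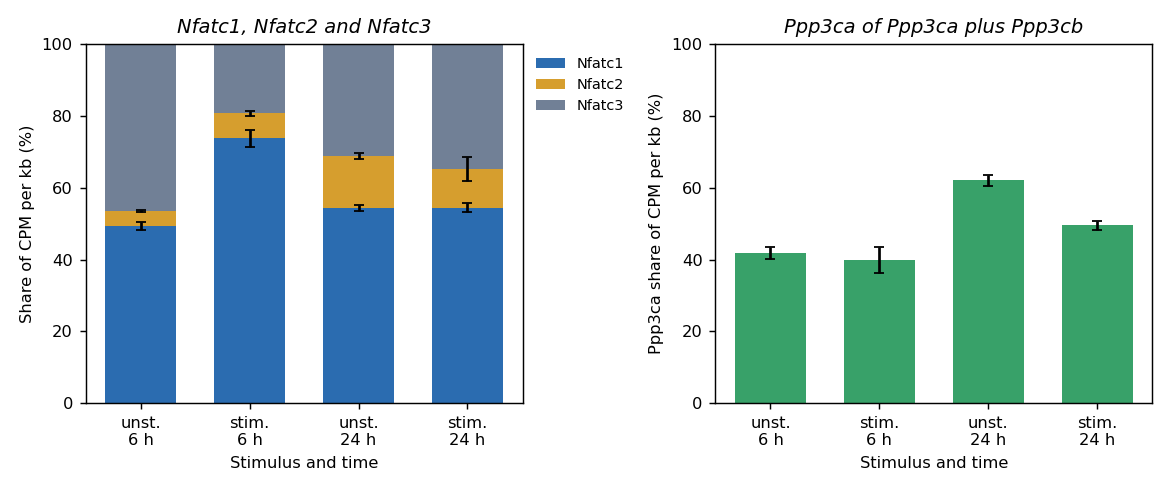
Mean share per kb of exon (percent) of Nfatc1, Nfatc2 and Nfatc3 in their sum, as stacked bars with the SD of the Nfatc1 and Nfatc2 segments, and of Ppp3ca in the sum of Ppp3ca and Ppp3cb with its SD, over 4 libraries in each combination of stimulus and time. The Nfatc1 segment is tallest in stimulated libraries at 6 h (73.7%) and the Ppp3ca bar in unstimulated libraries at 24 h (62.0%).

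Whether NFAM1 loss changed these genes was compared at 6 h, with 2 libraries per genotype and stimulus. None of the 8 NFAT and calcineurin genes passed the test between genotypes, and no test is given for Cacnb3 and Cdk5r1. The limma fit over the 8 libraries at 6 h called 0.157% of 12111 genes between genotypes without stimulus and 0.0413% with it. At an unadjusted p under 0.05, 1 of the 8 genes, Nfat5, passed in either comparison, and with voom weights 0 passed after adjustment and 1 and 2 did before it, the additional gene being Nfatc1 with stimulus. At that unadjusted level 8.74% and 12.6% of all genes passed. The counts over all genes rested on single libraries, from 0 (without library 4) to 71 (without library 10) in place of 19 without stimulus, and from 0 (without library 26) to 1111 (without library 10) in place of 5 with it.

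Nfat5 stood at 222 and 178 CPM in NFAM1+/+ and at 169.9 and 159.9 CPM in NFAM1-/- libraries without stimulus, and at 185 and 162 CPM in NFAM1+/+ and 145 and 126 CPM in NFAM1-/- libraries with it. The NFAM1-/- libraries were lower in both, by a log2 difference of -0.27 (95% interval -0.54 to -0.01, adjusted p = 0.569) and of -0.36 (95% interval -0.63 to -0.09, adjusted p = 0.334). Nfatc1 in stimulated libraries was at 115 and 142 CPM in NFAM1+/+ and at 149 and 151 CPM in NFAM1-/-, a log2 difference of 0.24 (95% interval -0.01 to 0.48, adjusted p = 0.406). Without library 10 this difference was 0.39 and passed (adjusted p = 0.0315), at a setting in which the remaining NFAM1+/+ library was assumed to vary like the other groups and in which 1111 genes passed. For the other 6 genes the differences ran from -0.22 to 0.19 without stimulus and from -0.09 to 0.17 with it.

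Cacnb3 was 2.78-fold lower in the mean CPM of NFAM1-/- libraries without stimulus and 2.10-fold lower with it, with log2 differences of -1.46 and -1.04 (SE 0.266 each). Cdk5r1 was 2.06-fold lower with stimulus (log2 -1.02, SE 0.373), whereas without stimulus the genotypes overlapped (log2 0.26, SE 0.373). Of the 8 NFAT and calcineurin genes, the genotypes did not overlap for 4 without stimulus and for 4 with it, 2 lower and 2 higher in NFAM1-/- each time, near the 42.3% and 43% of all genes with 2 libraries per group (20.4% and 19% lower, 21.9% and 24% higher). Those lower in NFAM1-/- were Nfat5 and Rcan1 without stimulus and Nfatc2 and Nfat5 with it, and for Nfatc2 that gap was 18.7 against 18.6 CPM.

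**Figure D4:**
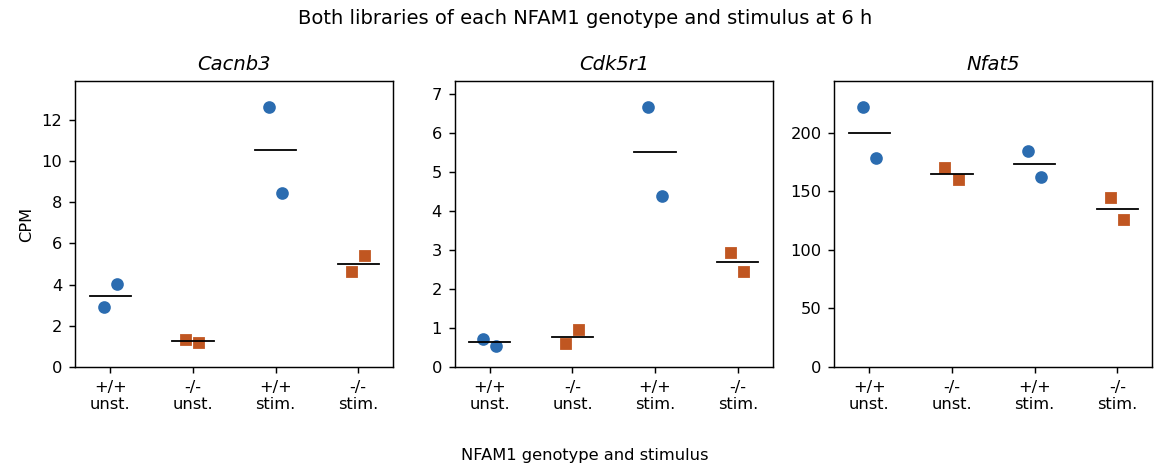
CPM (axis from 0) of Cacnb3, Cdk5r1 and Nfat5 at 6 h in each NFAM1+/+ and NFAM1-/- library, without and with stimulus, with a bar at the mean of both libraries. Both NFAM1-/- libraries lie below both NFAM1+/+ libraries in each panel and condition except for Cdk5r1 without stimulus, where 0.596 and 0.948 CPM enclose the NFAM1+/+ value of 0.731 CPM.

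The response to stimulus at 6 h was measured within each genotype, and the 2 comparisons share no libraries. Both come from 1 fit with 1 estimate of the spread. Leaving out an NFAM1+/+ library (1, 2, 26 or 10) can therefore alter p-values in NFAM1-/- while the log2 changes there stay the same. In NFAM1+/+ libraries 4 of the 8 genes rose and 3 fell, and in NFAM1-/- libraries 3 rose and 2 fell, where 71.4% (32.6% higher, 38.8% lower) and 70.4% (32.4% higher, 38% lower) of all genes passed. Ppp3ca rose in NFAM1+/+ (log2 0.53, adjusted p = 0.00245) and changed by 0.25 in NFAM1-/- (adjusted p = 0.0798), and Rcan1 fell in NFAM1+/+ (log2 -0.41, adjusted p = 0.0418) and changed by -0.27 in NFAM1-/- (adjusted p = 0.164). Without library 3, Ppp3r1 did not pass in NFAM1-/- (adjusted p = 0.0637), and Rcan1 did not pass in NFAM1+/+ without any one of the 4 NFAM1+/+ libraries (adjusted p 0.0822 to 0.166) but passed in NFAM1-/- without library 11 (adjusted p = 0.0153). Ppp3ca passed in NFAM1-/- without library 26 (adjusted p = 0.00888) or 10 (adjusted p = 0.00853), and Nfat5 passed there without library 1, 2, 26, 10 or 11 (adjusted p 0.0324 to 0.0451) and in NFAM1+/+ without library 2 (adjusted p = 0.0341). The responses of Ppp3ca and Rcan1 were not shown to differ between genotypes, with interactions of -0.28 (adjusted p = 0.716) and 0.15 (adjusted p = 0.880). The limma interaction test called 0 of all genes (0%), and 846 genes or 6.99% had an unadjusted p under 0.05, among them 0 of the 8, while with voom weights 0 genes passed and 823 had an unadjusted p under 0.05. Without library 10 the limma interaction test called 272 genes, without library 2 it called 3 and without library 11 it called 1. The log2 response of Cdk5r1 was 3.11 in NFAM1+/+ and 1.83 in NFAM1-/- libraries (difference -1.28, SE 0.527), and that of Cacnb3 was 1.59 and 2.01 (difference 0.41, SE 0.376).

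At 24 h, with 1 library per genotype and no replicate, Cacnb3 was at 19.2 CPM in NFAM1-/- library 43 and 10.7 CPM in NFAM1+/+ library 45 without stimulus, and at 55.6 CPM in NFAM1-/- library 55 and 57.4 CPM in NFAM1+/+ library 57 with it. The lower Cacnb3 of NFAM1-/- libraries at 6 h was thus not seen in these pairs, where the log2 differences were 0.84 and -0.05. Taking the genotype of all 8 libraries from the title gave -0.25 and -0.42, and taking it from the tag gave 1.096 and 0.38, so the sign depends on which label is used. Without stimulus, 0.937% of all genes passed the limma test between genotypes by the titles and 0.00822% by the tags. Nfam1 was at 441, 463, 495 and 391 CPM in libraries 43, 44, 45 and 46. In libraries 55, 56, 57 and 58 it was at 201, 271, 252 and 223 CPM. The titles name 43, 46, 55 and 58 as NFAM1-/-, and the tags name 43, 44, 55 and 56. Which label is right was not tested. For Cdk5r1 the single libraries differed by 0.41 and -0.33, the titles gave 1.01 and -0.43 and the tags gave -0.60 and 0.10. Nfatc2 with stimulus was at 20.1 CPM in library 55 and 15.1 CPM in library 57 (log2 0.42), and its difference was 0.84 by the titles (adjusted p = 0.0550, where 0.304% of all genes passed) and -0.42 by the tags (adjusted p = 0.999, 0%). Between the single libraries, 3.05% of all genes differed at least 2-fold without stimulus and 3.01% with it, and 0 of the 10 genes did in either.

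The genes around calcineurin and NFAT were read from lists of pathway members. Their counts stand against 78% of all genes that passed at 6 h (34.7% higher, 43.3% lower) and 74.3% at 24 h (38.2% higher, 36.1% lower), and nothing particular to a list is read from them. Of 10 tested genes among 15 other NFAT and calcineurin genes, 2 rose and 6 fell at 6 h, and 1 rose and 3 fell at 24 h, with median log2 changes of -0.39 and -0.16 against -0.13 and 0.02 over all genes. Calm2, a gene for calmodulin, fell at both times (log2 -1.11, adjusted p = 1.43e-09, and -0.9996, adjusted p = 7.49e-09). Rcan3, a relative of Rcan1, fell at both times (log2 -1.53, adjusted p = 1.31e-09, and -1.66, adjusted p = 5.99e-10), from 14.4 to 16.6 CPM down to 4.22 to 6.14 CPM at 6 h. Homer3, which encodes a scaffold protein that can bind NFAT, fell at 6 h (log2 -1.47, adjusted p = 1.18e-08), and Cabin1, a calcineurin-binding inhibitor, rose by 0.25 (adjusted p = 0.000230), a direction lost on each library's own total (-0.48). Ppp3r2, Rcan2, Akap5 and Homer2 are not listed, and Nfatc4 was at 0.0058 to 1.66 CPM and below the filter of the 16-library fit. The Nfatc4 value of 0.0058 CPM holds no reads beyond the added 0.5. In the fit of the 8 libraries at 6 h Nfatc4 rose with stimulus in NFAM1+/+ (log2 2.30, adjusted p = 0.0126) and in NFAM1-/- (log2 2.58, adjusted p = 0.00722).

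Of the 10 genes of store-operated calcium entry, 3 rose and 6 fell at 6 h, and 3 rose and 5 fell at 24 h, with medians of -0.53 and -0.14. Itpr1, a receptor that releases calcium from the endoplasmic reticulum, was at 28.3 to 33.3 CPM in unstimulated and 185 to 358 CPM in stimulated libraries at 6 h and rose at both times (log2 2.87, adjusted p = 1.04e-09, and 0.80, adjusted p = 0.00231). Its relative Itpr2 fell at both times (log2 -0.81, adjusted p = 2.49e-06, and -1.71, adjusted p = 2.03e-10). Plcg1, a phospholipase that makes the ligand of these receptors, fell as well (log2 -1.18, adjusted p = 7.31e-07, and -1.01, adjusted p = 5.50e-06), from 3.82 to 6.27 CPM down to 1.97 to 2.65 CPM at 6 h. The related Plcg2 was far higher, at 282 to 312 CPM without and 316 to 361 CPM with stimulus at 6 h (log2 0.18, but -0.55 on each library's own total). At 24 h Plcg2 was at 347 to 390 CPM without and 267 to 336 CPM with stimulus. Orai2, a channel subunit, fell at 6 h (log2 -0.64, adjusted p = 8.80e-07) and rose at 24 h (log2 0.85, adjusted p = 2.65e-08), with a difference between the responses of 1.49 (adjusted p = 5.55e-09). Stim2, a calcium sensor, rose by 0.26 at 6 h (adjusted p = 0.00794; -0.47 on each library's own total).

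Of the 8 genes for NFAT kinases and nuclear export, 6 rose and 1 fell at 6 h, and 5 rose and 1 fell at 24 h, with medians of 0.37 and 0.26, but on each library's own total 0 rose and 8 fell at 6 h. Csnk1e, a casein kinase 1 gene, rose at 6 h (log2 0.57, adjusted p = 9.43e-08; -0.16 on own totals) and fell at 24 h (log2 -1.03, adjusted p = 4.34e-11). Gsk3b, a GSK3 gene, rose at 6 h (log2 0.48, adjusted p = 1.12e-07; -0.25 on own totals), and its relative Gsk3a fell by 0.26 (adjusted p = 0.00327). At 24 h the exportin gene Xpo1 and the kinase gene Dyrk1a rose (log2 1.08, adjusted p = 9.04e-11, and 0.81, adjusted p = 2.93e-09).

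Of 17 other voltage-gated calcium channel subunit genes, 7 are listed and 5 were tested, with 2 higher and 2 lower at 6 h and 0 higher and 3 lower at 24 h, and medians of 1.17 and -1.03. Cacna1d, which encodes a pore subunit, was at 6.08 to 7.07 CPM in unstimulated and 56.9 to 74.8 CPM in stimulated libraries at 6 h, and at 18.4 to 25.4 CPM and 7.84 to 16.01 CPM at 24 h. It rose by 3.21 on the log2 scale at 6 h (adjusted p = 3.10e-11) and fell by 1.03 at 24 h (adjusted p = 6.68e-05). Cacnb1, another β subunit gene, fell at 6 h (log2 -0.77, adjusted p = 0.000911), and Cacna1f, a pore subunit gene at 0.202 to 2.54 CPM, fell at both times (log2 -1.63, adjusted p = 0.00134, and -2.003, adjusted p = 0.000245). Cacna1a, at 0.603 to 2.21 CPM, rose at 6 h (log2 1.17, adjusted p = 0.000164). Cacnb2 was at 0.588 to 1.56 CPM in unstimulated and 0.00697 to 0.339 CPM in stimulated libraries at 24 h (adjusted p = 0.00245). The Cacnb2 value of 0.00697 CPM holds no reads beyond the added 0.5.

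Of 5 tested genes among CDK5 and its partners, 1 rose and 2 fell at 6 h, and 1 rose and 1 fell at 24 h, with medians of -0.72 and -0.09. Cdk5 itself, the kinase that p35 activates, was at 15.7 to 20.4 CPM in unstimulated and 7.002 to 10.98 CPM in stimulated libraries at 6 h and fell (log2 -1.18, adjusted p = 1.01e-07), at the time when Cdk5r1 was higher with stimulus. At 24 h Cdk5 differed by -0.07 (adjusted p = 0.622). Cdk5rap3 fell at both times (log2 -1.42, adjusted p = 8.21e-10, and -0.58, adjusted p = 7.20e-05), and Cdk5rap2 rose at 24 h (log2 0.64, adjusted p = 3.48e-05). Cables1 passed as higher at 6 h (log2 2.28, SE 0.974, adjusted p = 0.0417). It was at 0.607, 0.00802, 0.387 and 0.546 CPM in unstimulated and 0.669 to 1.13 CPM in stimulated libraries. The value of 0.00802 CPM, in library 2, holds no reads beyond the added 0.5 and enlarges this change.

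Of 5 osmolyte genes that NFAT5 is known to drive, 0 rose and 3 fell at 6 h, and 1 rose and 4 fell at 24 h, with medians of -0.56 and -1.32. Slc6a12, a betaine transporter, was at 20.6 to 29.8 CPM in unstimulated and 0.952 to 2.08 CPM in stimulated libraries at 6 h and fell at both times (log2 -4.22, adjusted p = 3.24e-09, and -3.07, adjusted p = 2.53e-07). Slc5a3, an inositol transporter, fell at 6 h (log2 -2.47, adjusted p = 1.89e-06), and Akr1b3, aldose reductase, fell at 24 h (log2 -2.08, adjusted p = 2.59e-11). Slc38a2, an amino acid transporter, rose by 0.30 at 24 h (adjusted p = 0.0130; -0.04 on own totals).

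Of 7 other substrates of calcineurin, 1 rose and 5 fell at 6 h, and 1 rose and 6 fell at 24 h, with medians of -1.14 and -0.58. The transcription factor gene Mef2c was at 38.5 to 40.5 CPM in unstimulated and 2.65 to 3.51 CPM in stimulated libraries at 24 h (log2 -3.64, adjusted p = 7.63e-16), and Mef2a fell by 1.253 at that time (adjusted p = 1.28e-09). At 6 h the largest falls in this list were those of Crtc1, a CREB coactivator (log2 -1.97, adjusted p = 5.46e-10), and Mef2d (log2 -1.89, adjusted p = 2.41e-10). Crtc2 rose at both times (log2 0.21, adjusted p = 0.00127, and 0.61, adjusted p = 8.33e-09), and at 6 h it was lower on own totals (-0.52).

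The study names Cdk5r1, described above, among the NFAT targets with lower expression in stimulated NFAM1-/- monocytes. Of 6 genes for the other targets that the study names, 5 rose and 1 fell at 6 h and 4 rose and 1 fell at 24 h, with medians of 4.38 and 3.35. That list was chosen on these samples and is no independent evidence of direction. The cytokine gene Il12b rose by 8.09 at 6 h (adjusted p = 6.98e-10) and by 5.02 at 24 h (adjusted p = 4.59e-07), Lta rose by 6.00 and 7.97 (adjusted p = 5.97e-09 and 1.65e-10), and the nuclear receptor gene Nr4a1 fell (log2 -2.47, adjusted p = 2.61e-06, and -3.88, adjusted p = 1.01e-08). Between genotypes at 6 h, 1 gene of all these lists passed, Nr4a1 with stimulus, at 46.5 and 42.7 CPM in NFAM1+/+ and 25.7 and 23.2 CPM in NFAM1-/- libraries (log2 -0.87, adjusted p = 0.0273), and without library 26 no gene of the table passed in that comparison. Without stimulus Nr4a1 was at 207 and 211 CPM in NFAM1+/+ and at 171 and 149 CPM in NFAM1-/- libraries, and it did not pass. The study reports a small, significant decrease of Nr4a1 in that unstimulated condition. Tnf differed by -0.67 without stimulus (adjusted p = 0.0761) and by -0.42 with it (adjusted p = 0.294).

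**Figure D5:**
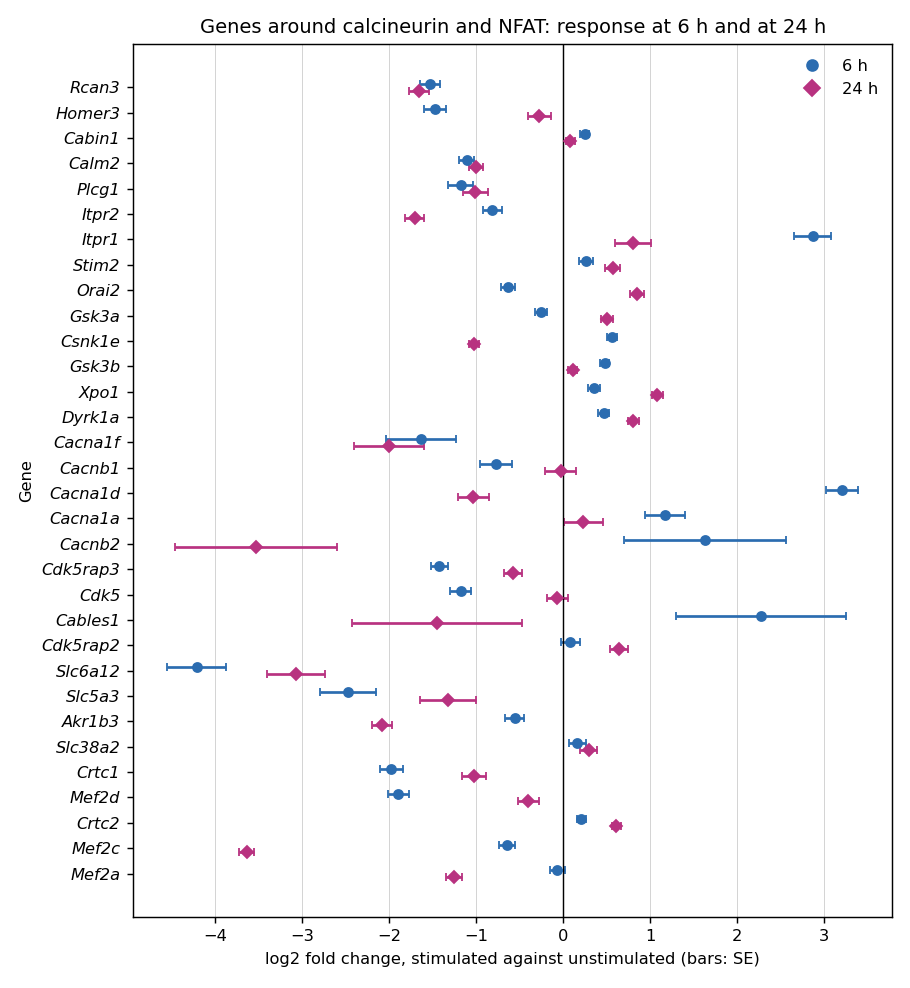
Log2 fold change with SE of stimulated against unstimulated libraries at 6 h and 24 h for the named genes of the pathway lists, 4 libraries per group. Cacna1d and Csnk1e change from higher at 6 h (3.21 and 0.57) to lower at 24 h (-1.03 for both), Orai2 from lower to higher, and Slc6a12 is lower at both times.

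The genes whose log2 CPM ran most alike over the 16 libraries, among 12305 others, differed for each of the 10 genes. They are a description, since the 16 points fall into 4 combinations of stimulus and time and share their scaling. For Nfatc1 these were Got2, Trip6 and Ncoa3 (Pearson r 0.968 to 0.980), and for Nfatc2 they were Pak1, Nlrp1c-ps and Inpp4b (r 0.938 to 0.991). Cacnb3 ran with Apol7c, Ccr7 and Plxna1 (r 0.965 to 0.968), and Cdk5r1 with Fnip1, D16Ertd472e and Abcg1 (r 0.948 to 0.960). Nfatc3 ran with Parp1, Plekhm3 and Fem1a (r 0.980 to 0.982), Nfat5 with Cdc27, Rnf20 and 4833407H14Rik (r 0.930 to 0.949), and Rcan1 with Chd4, Treml4 and Olr1 (r 0.922 to 0.926). For the calcineurin subunits they were Arid1b, Bicra and Ankrd16 with Ppp3ca (r 0.940 to 0.946), Rbm3, Mre11a and Clec5a with Ppp3cb (r 0.986 to 0.987), and Idh3b, Klhl26 and Ndufs7 with Ppp3r1 (r 0.959 to 0.963). Among the 10 genes themselves, r was 0.74 between Cacnb3 and Cdk5r1 and -0.81 between Cacnb3 and Rcan1, and the catalytic subunit genes Ppp3ca and Ppp3cb had an r of -0.12.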

How the data were processed

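RNA of 16 monocyte libraries was sequenced as paired reads from poly(A) libraries that did not keep strand. The authors aligned reads with STAR, counted them with Rsubread, normalized with edgeR and deposited log2 CPM, where per the file headers each column is a library. The submitters' notes name GRCm39, and tool versions are not given in the sources used here. Reads were recovered from each deposited log2 value, taken as the reads with 0.5 added, divided by a scaled size of the library, and all came out whole within 0.01, or within the rounding of the deposited value for high counts. The deposited values were fitted with limma 3.58.1 (lmFit, eBayes with trend) in R 4.3.3 and adjusted by Benjamini-Hochberg over all genes tested. Stimulus and time were fitted over 16 libraries as 4 combinations (genes reaching 1 CPM in 4 or more libraries), and genotype at 6 h over 8 libraries as 4 groups (1 CPM in 2 or more). Genes passed at an adjusted p under 0.05, and CPM are 2 to the power of the deposited value. Levels per kb used exon unions of the GRCm38.p6 annotation. Intervals are 95% intervals of the fit. Fits of the stimulus responses and of genotype at 6 h without stimulus were run on simulated counts. These had independent libraries and the same variability beyond sampling for every gene, a setting without effects shared by libraries of a mouse.

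The 10 genes and the pathway lists were chosen with earlier results of these data known. Named are all 10 genes, from each list and comparison up to 2 genes with the largest rise and 2 with the largest fall among those passed, and the 3 closest genes by correlation. A gene that the rule names is not reported here. The genotype values of Tnf, of Nr4a1 without stimulus and of Nfam1 at 24 h, and the genes not listed, are outside the rule and were added after values were seen. Alternatives were other scalings (own total of reads, quantile, median), other filters (none, or a mean of at least 5 CPM), no trend, robust estimation, voom weights on the recovered reads, genotype terms, fits of only the groups compared, a fold change of at least 2, and leaving out each library in turn. Of the listed symbols, 17 appear as dates and 1 is repeated, none of them among the genes named here. Sources name no preparation batches, so a batch by time cannot be told apart from time.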

Additional observations from a re-analysis of the deposited data

Results flagged for a closer look

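In 40 sets of 4 libraries, 1 for each of the 10 genes and each combination of stimulus and time, the highest or lowest library was compared with the rest at Dixon's 95% limit, which chance passes in about 1 of 20 sets. Cacnb3 in stimulated library 58 at 24 h was at 34.4 CPM, below the other libraries at 55.6 to 59.8 CPM. Rcan1 in unstimulated library 46 at 24 h was at 18.3 CPM, against 23.5 to 24.6 CPM in the others. Ppp3r1 in unstimulated library 45 at 24 h was at 71.7 CPM, against 64.6 to 65.6 CPM. Library 58 also had the highest Nfatc2 of its set, at 30.2 CPM, and libraries 46 and 58 are among those whose title and genotype tag disagree.

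The response to IFN-γ plus CD40L differed between 24 h and 6 h, by the limma test of the difference itself, for 7 of the 8 NFAT and calcineurin genes, where 66.4% of all genes passed. The difference (log2 response at 24 h minus that at 6 h) was -1.76 for Nfatc1, -2.37 for Nfatc2, 0.25 for Nfatc3, 0.61 for Nfat5, -0.90 for Ppp3ca, -0.28 for Ppp3cb and 0.71 for Ppp3r1. The direction turned from higher to lower for Nfatc1, Nfatc2 and Ppp3ca and from lower to higher for Ppp3r1, and on each library's own total that of Ppp3ca and Ppp3r1 did not turn (Ppp3ca -0.34 at 6 h, Ppp3r1 -0.00448 at 24 h).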

How the results depend on the processing

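No paired analysis was possible because every library has a number of its own, groups share none and no label ties libraries to a mouse. The fits treated all libraries as independent, and whether libraries of different groups came from the same mice was not tested. For the 10 genes, 952 of 1030 values counted as kept under settings other than leaving out a library, and 97 of 114 counts stayed within 1.5 times. For the 8 NFAT and calcineurin genes a kept value had the same direction and side of the threshold. For Cacnb3, Cdk5r1 and all genotype differences at 24 h it had moved by less than the SE, and no threshold was applied. The other named genes are not in this count. A fold change of at least 2 lowered the genes passed to 4830 (stimulus, 6 h), 4028 (24 h), 2506 (time, unstimulated), 4083 (time, stimulated), 3885 (stimulus by time), 4807 (6 h, NFAM1+/+), 4634 (6 h, NFAM1-/-) and 8 (genotype, unstimulated). Genotype without stimulus gave 41 genes with quantile normalization, 3 without trend and 86 fitting only its groups. With stimulus it gave 2 at a mean of at least 5 CPM and, in limma, 0 without trend, with voom weights (1321 at an unadjusted p under 0.05) or fitting only its groups. Genes at least 2-fold apart at 24 h numbered 194 and 225 by the tags. The cause was not tested. On each library's own total, log2 values turned for Ppp3ca (-0.34 at 6 h, -0.19 in NFAM1+/+, -0.48 in NFAM1-/-), Ppp3cb (-0.23, -0.24 and -0.21; -0.10 at 24 h), Ppp3r1 (-0.00448 at 24 h), for time in Nfatc3 (-0.019, unstimulated), Nfatc2 (0.36), Nfat5 (0.021) and Ppp3ca (0.050, stimulated), and for stimulus by time in Ppp3cb (0.12) and Rcan1 (0.26). Median centring turned Nfatc3 (time -0.019, genotype -0.00153, unstimulated), voom Nfatc2 (time, stimulated, 0.00294), and quantile normalization Nfat5 (genotype by stimulus, 0.00838) and Ppp3ca (NFAM1-/-, -0.042). Rcan1 at 6 h was lost under median centring (-0.16, adjusted p = 0.217). Leaving out 1 library gave 9265 to 9638 genes (stimulus, 6 h), 8733 to 9235 (24 h), 7226 to 7889 and 8945 to 9315 (time), 7870 to 8149 (stimulus by time), 7719 to 8475 and 7262 to 8824 (6 h within NFAM1+/+ and NFAM1-/-), 0 to 71 and 0 to 1111 (genotype) and 0 to 272 (genotype by stimulus). The sign of small values turned with 1 library out for Nfatc3 (-0.015 to 0.039) and Nfatc2 (-0.25 to 0.17) over time, unstimulated and stimulated; for genotype without stimulus in Nfatc1 (-0.013 to 0.16), Nfatc3 (-0.051 to 0.065), Ppp3cb (-0.066 to 0.12) and Ppp3r1 (-0.00669 to 0.14), and with it in Nfatc3 (-0.072 to 0.025), Ppp3ca (-0.28 to 0.0996) and Rcan1 (-0.32 to 0.18); and for genotype by stimulus in Nfatc3 (-0.088 to 0.027), Nfat5 (-0.25 to 0.069), Ppp3cb (-0.050 to 0.14) and Rcan1 (-0.10 to 0.39).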

Other observations

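Time in culture without stimulus also went with changes in the genes around calcineurin. From 6 h to 24 h, 6 of the 10 genes of store-operated calcium entry rose and 3 fell (62.9% of all genes passed in this comparison, 33.3% higher and 29.6% lower), with a median log2 change of 0.32 against 0.04 over all genes. Plcg1 was at 3.82 to 6.27 CPM at 6 h and 16.3 to 19.4 CPM at 24 h (log2 1.85, adjusted p = 7.81e-09), and Itpr2 was at 20.7 to 24.2 CPM and 46.7 to 63.5 CPM (log2 1.30, adjusted p = 2.22e-08). Orai2 fell (log2 -0.85, adjusted p = 6.52e-08). Of the 7 other calcineurin substrates 5 rose and 1 fell, with Mef2a at 156 to 210 CPM at 6 h and 298 to 342 CPM at 24 h (log2 0.80, adjusted p = 9.74e-07). Ppp3cc, the gene of the catalytic subunit best known from testis, was at 1.03 to 2.16 CPM at 6 h and 1.90 to 6.25 CPM at 24 h (log2 1.47, adjusted p = 0.000548), far below Ppp3ca and Ppp3cb in CPM not corrected for length. Cacna1d and Cacnb1 rose as well (log2 1.71, adjusted p = 3.98e-07, and 1.00, adjusted p = 0.000144), and Cdk5rap2 fell (log2 -1.53, adjusted p = 2.19e-09).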
